A study of Mus musculus with 3 samples.

Results

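The interval described here was the stretch of mouse chromosome 1 from position 125000000 to 150000000 of genome build GRCm38, a 25 Mb region that holds Ptprc. Its members were all single nucleotide polymorphisms (SNPs) between the C57BL/6J (B6) and CAST/EiJ (CAST) genomes that the deposited allelic count files list there, chosen by position alone. They came to 4173 of the 452304 SNPs in the files and fell in 208 of 30212 genes. Of these genes 148 were protein-coding, 11 were processed pseudogenes and 7 were not in the GENCODE annotation used, so those 7 are named by their identifiers.

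The measurements were allelic read counts from whole exome sequencing of genomic DNA in 3 libraries, each from sorted donor-derived lymphocytes of a different recipient mouse. E6.2 was the polyclonal library, made from 58000 B220+IgM+ B cells of a female that had received 50 haematopoietic stem cells (HSCs) of donor 6. E6.43 was a monoclonal library, that is 1 clone of cells, from 250000 CD4+ thymocytes of a female that had received 1 HSC of donor 6. E15.10 was also a clone, from 177000 CD4+ thymocytes of a female that had received 1 HSC of donor 15. All donors were F1 females with a B6 mother and a CAST father, and per the study's methods their B6 parent carried the Ly5.2 form of Ptprc. Recipients were also F1 females of B6 and CAST, with a Ly5.1 form from the B6 side. The methods describe that B6 parent as Ly5.1, while a figure legend writes it as carrying both Ly5.2 and Ly5.1. Donors were under 5 weeks old, recipients were 5 to 16 weeks old and sublethally irradiated, and cells were taken 12 weeks after injection and sorted as Ly5.2-positive and Ly5.1-negative. The label gives spleen as the source of the B cells, and the methods give bone marrow. DNA counts cannot be checked against expression markers of a cell type, so the cell identities are those of the labels. Each group had 1 library, so differences between libraries compare these libraries and not the conditions.

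Ptprc encodes CD45, a transmembrane tyrosine phosphatase on all nucleated blood cells that sets the threshold of antigen receptor signalling in T and B cells. Ly5.1 and Ly5.2 are allelic forms of its extracellular part that antibodies tell apart, and for that reason mice congenic for this locus are widely used to separate donor from recipient blood cells. A congenic strain carries, around the selected gene, a segment of the strain it was bred from, and this segment can reach over many megabases on either side. Residual recipient cells, all of which hold a CAST chromosome as donor cells do, would shift the allelic counts here only at listed positions where the Ly5.1 chromosome carries the CAST base. The base of the Ly5.1 chromosome at each SNP was not used here.

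The allelic counts of Ptprc turned on 2 short coding exons in which the listed SNPs lie very close together. The gene is on the minus strand at chr1:138062861-138175708, and exons are numbered along the 32 coding exons of its longest coding transcript, Ptprc-207, whose coding sequence has 3879 bases. The 4 exons below are GRCm38 reference (B6) sequence, written 5′ to 3′ along the coding strand, with each listed SNP position in capitals. Exons 10 and 8 hold the crowded SNPs, exon 9 lies between them and holds 4, and exon 5 is shown beside them with 2 SNPs.
Ptprc coding exon 10, chr1:138111152-138111310: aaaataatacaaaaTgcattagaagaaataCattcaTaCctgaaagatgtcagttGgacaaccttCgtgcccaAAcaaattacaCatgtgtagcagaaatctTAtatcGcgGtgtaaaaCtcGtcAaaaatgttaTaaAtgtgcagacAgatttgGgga
Ptprc coding exon 8, chr1:138113564-138113779: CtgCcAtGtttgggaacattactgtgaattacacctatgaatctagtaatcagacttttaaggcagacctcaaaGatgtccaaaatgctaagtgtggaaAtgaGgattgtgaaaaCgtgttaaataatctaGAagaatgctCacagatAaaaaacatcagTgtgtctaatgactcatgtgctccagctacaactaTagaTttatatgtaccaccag
Ptprc coding exon 9, chr1:138112191-138112331: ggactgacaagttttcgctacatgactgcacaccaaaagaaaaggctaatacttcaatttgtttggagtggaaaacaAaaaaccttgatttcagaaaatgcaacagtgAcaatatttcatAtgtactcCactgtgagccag
Ptprc coding exon 5, chr1:138117754-138117894: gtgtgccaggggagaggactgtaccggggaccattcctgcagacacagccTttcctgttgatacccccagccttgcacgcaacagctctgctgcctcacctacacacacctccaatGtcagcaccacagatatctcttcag
Exon 10 has 20 listed SNPs in 159 bases, or 12.6% of its bases, with a median gap of 7 bp between neighbours. Exon 8 has 15 in 216 bases with a median gap of 8 bp. Exon 5 has 2 in 141 bases, 66 bp apart. Exon 5 is in 1 of the 5 protein-coding transcripts of Ptprc, and exon 8 is in 4 of them.

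Both parental alleles were present across the interval in all 3 libraries, at a slight excess of B6. The allelic imbalance (AI), which is the maternal (B6) count divided by the sum of maternal and paternal (CAST) counts, was 0.547 over the summed counts of the interval in E6.2 (95% Wilson interval 0.544 to 0.549, 155516 counts). It was 0.553 in E6.43 (0.55 to 0.556, 103550 counts) and 0.546 in E15.10 (0.543 to 0.55, 84020 counts). The same share over all autosomes was 0.541 in each library, and over the rest of chromosome 1 it was 0.542 in E6.2, 0.543 in clone E6.43 and 0.538 in clone E15.10. The lower bound of the interval's AI was above the autosomal value in every library. These intervals cover counting error alone, and counts at SNPs that share a read pair are not independent. Only SNPs at least 300 bp apart gave 0.534 in E6.2, 0.54 in clone E6.43 and 0.536 in clone E15.10. The autosomal 0.541 is over all SNPs, so it is not a like value for that set. At SNPs with no other listed SNP within 75 bp the interval had 0.528, 0.536 and 0.533. All autosomes had 0.522, 0.522 and 0.525 at such SNPs.

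The share of autosomal counts that fell in the interval was close in the 3 libraries, at 82.3 per 10000 in E6.2, 81.7 in clone E6.43 and 79.1 in clone E15.10. At least 20 counts were reached by 1545 SNPs in E6.2, 1424 in clone E6.43 and 1136 in clone E15.10, with median counts of 90, 64 and 60 at those SNPs. No counts were listed at 2159, 2252 and 2222 SNPs in the same order. A SNP at those median counts has a lower 95% bound that lies 0.103, 0.121 and 0.125 below the AI of the interval. Such a drop would follow if 18.8%, 21.9% and 22.9% of the cells, in the same order, carried a CAST base on their maternal chromosome, so smaller admixtures were not detectable at a typical SNP.

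No SNP of the interval with at least 20 counts lacked the B6 allele. The count was 0 of 1545 SNPs in E6.2, which allows a share of up to 0.194%, 0 of 1424 in clone E6.43 (up to 0.211%) and 0 of 1136 in clone E15.10 (up to 0.264%). These limits treat each SNP as a separate draw, although neighbours share read pairs and lie on the same chromosome. Of all SNPs of the interval only 951 were in the set at least 300 bp apart, so the limits are too low. Among all autosomal SNPs the share without B6 counts was 0.342%, 0.928% and 0.0950%. On the rest of chromosome 1 it was near 0 as well, at 1 of 9564, 2 of 8886 and 2 of 7480 SNPs. The CAST allele was missing at 3, 3 and 1 SNPs, against autosomal shares of 0.554%, 0.518% and 0.403%.

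An AI under 0.25 or over 0.75 was the range that the study's methods set aside for genes as loss of heterozygosity. Here it was applied also to single SNPs with at least 20 counts, where counting error is larger than for most genes. The range held 57 SNPs in E6.2 (3.69%, against 6.36% of autosomal SNPs), 74 in clone E6.43 (5.20%, against 6.84%) and 26 in clone E15.10 (2.29%, against 5.77%). On the rest of chromosome 1 the shares were 4.42%, 4.92% and 5.57%, so the interval of E6.43 was slightly above that. SNPs under 0.25 numbered 9, 12 and 5, with autosomal shares of 1.85%, 1.91% and 1.08%. SNPs over 0.75 numbered 48, 62 and 21, with autosomal shares of 4.50%, 4.93% and 4.69%. Of the 1088 SNPs with at least 20 counts in every library none was in that range in all 3, which was the case at 1.90% of autosomal SNPs, and 1034 were in it in no library.

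The 9, 12 and 5 SNPs under 0.25 lay in 6 genes in E6.2, 9 in clone E6.43 and 2 in clone E15.10. The longest run of neighbouring SNPs under 0.25 was 3 SNPs over 30 bp in E6.2, in the processed pseudogene Gm6397. In E6.43 it was 2 SNPs over 141 bp in Actr3, a subunit of the actin-nucleating Arp2/3 complex. In E15.10 it was 4 of the 5 SNPs under 0.25, over 13594 bp in Crb1, a gene of retinal cell polarity. The summed AI of Crb1 in E15.10 was 0.542. On the B6-rich side Ptprc gave the longest runs in the donor 6 libraries, with 15 SNPs over 199 bp in E6.2 and 10 SNPs over 100 bp in clone E6.43. Ptprc alone held 18 of the 48 SNPs over 0.75 in E6.2 and 15 of the 62 in clone E6.43. In E15.10 no SNP of Ptprc reached 20 counts, and the longest run was 3 SNPs in Ppfia4.

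**Figure D1:**
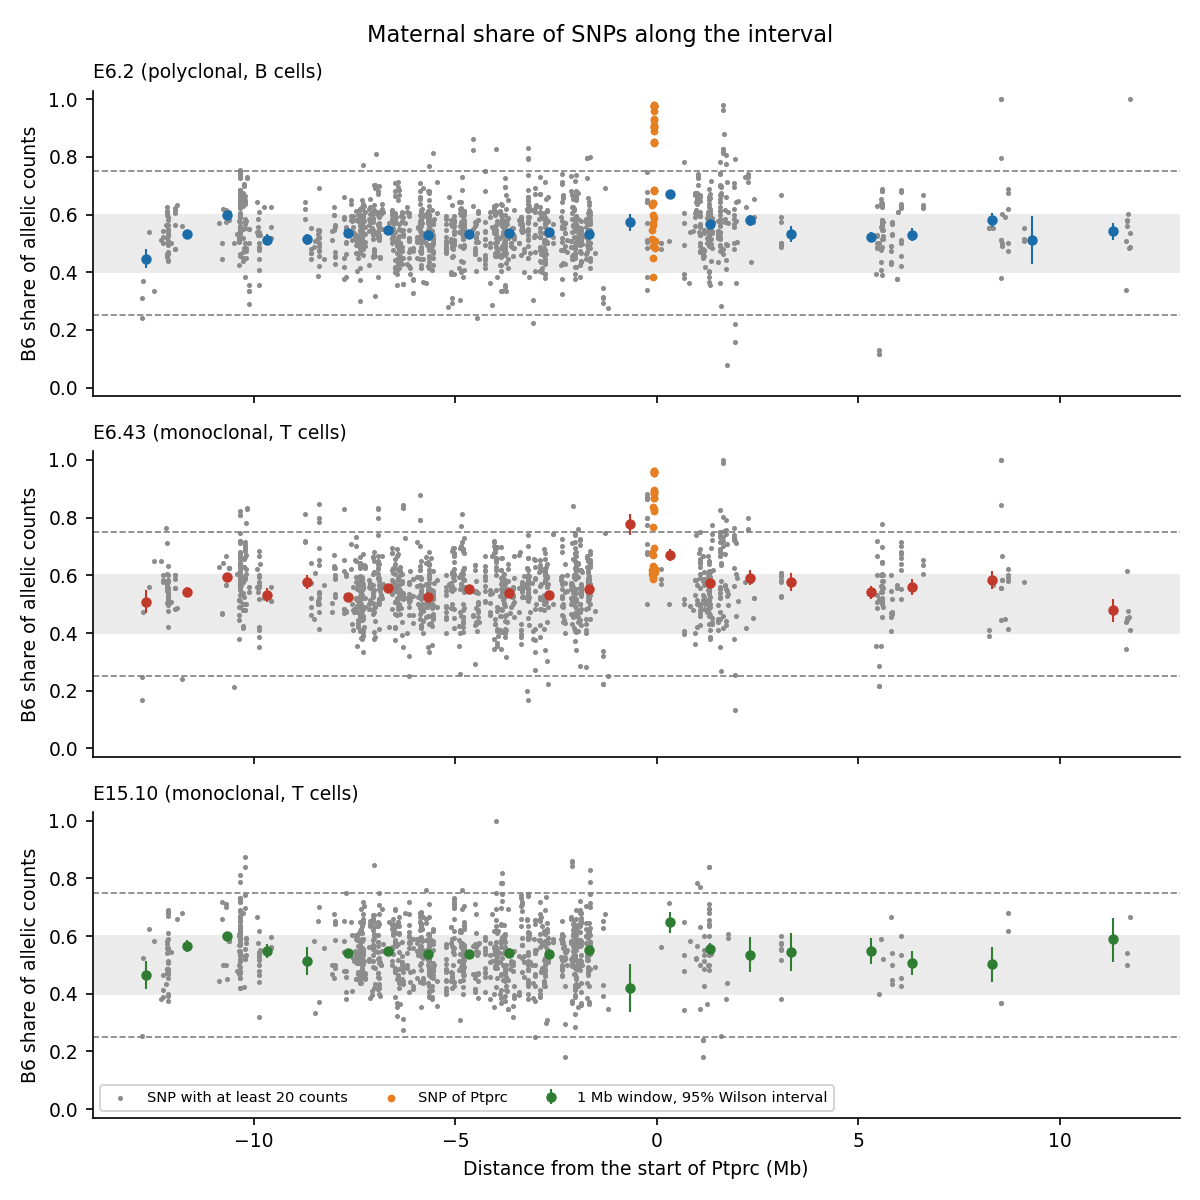
B6 share of allelic counts at each SNP with at least 20 counts (grey points; SNPs of Ptprc in orange) against distance from the start of Ptprc in Mb, with the summed share of each 1 Mb window and its 95% Wilson interval (large points), in 1 panel per library. Grey shading marks 0.4 to 0.6 and dashed lines mark 0.25 and 0.75. Windows away from Ptprc lie between 0.447 and 0.599, and those next to its start reach 0.670 in E6.2 and 0.778 in clone E6.43, and lie at 0.419 and 0.648 in clone E15.10. Windows with under 100 counts are not drawn.

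Along the interval the 1 Mb windows outside 0.4 to 0.6 were those at or next to Ptprc. Of the 1 Mb windows with at least 100 counts, 21 of 22 in E6.2, 19 of 21 in clone E6.43 and 20 of 21 in clone E15.10 lay between 0.4 and 0.6, and their medians were 0.534, 0.554 and 0.541. Away from Ptprc the window from 127 Mb was the highest, at 0.597, 0.594 and 0.599, and the window from 125 Mb was at 0.447 (0.416 to 0.479), 0.508 and 0.465. The window from 138 Mb, which holds Ptprc, was at 0.670 in E6.2, the highest there, at 0.672 in E6.43, and at 0.648 in E15.10, also the highest. The window from 137 Mb was at 0.778 in E6.43, and its counts came from ENSMUSG00000051480. Without Ptprc the 76 other SNPs of the window from 138 Mb gave 0.518 in E6.2 (0.488 to 0.549, 1003 counts), 0.502 in clone E6.43 (0.466 to 0.538, 723 counts) and 0.557 in clone E15.10 (0.510 to 0.603, 440 counts). The AI above 0.6 in that window was thus carried by the counts of Ptprc, and the 8 other genes there were together under 0.6.

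Ptprc itself had the highest AI of the interval's genes with over 1000 counts in E6.2 and in clone E6.43. Its AI was 0.741 in E6.2 (0.722 to 0.759, 2157 counts), 0.774 in clone E6.43 (0.749 to 0.796, 1202 counts) and 0.850 in clone E15.10 (0.794 to 0.893, 200 counts). The 60 SNPs summed in these values comprise 55 coding SNPs and 5 in untranslated parts, with none in introns. Against E6.2 the value was higher in E15.10 (difference 0.109, adjusted p = 0.00462, Fisher's exact test over all autosomal genes). The differences of E6.43 from E6.2 (0.0329, adjusted p = 0.156) and from E15.10 (-0.0763, adjusted p = 0.0727) did not pass the same exact test. Ptprc was not called in any pair when only SNPs at least 300 bp apart were summed, which gave 0.604, 0.663 and 0.781.

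Exons 8 and 10 held nearly no CAST counts. In E6.2 the 15 SNPs of exon 8 had 24 to 48 B6 counts and 1 to 3 CAST counts each. In E6.43 they had 12 to 26 B6 counts and 0 to 3 CAST counts, and in E15.10 1 to 3 B6 counts and none of CAST. Every SNP of exon 8 with at least 20 counts was therefore B6-rich. At the 20 SNPs of exon 10 no CAST count was seen in any library, against 8 to 13 B6 counts per SNP in E6.2, 4 to 7 in clone E6.43 and 1 to 4 in clone E15.10. At the deepest SNP of exon 10 a CAST count of 0 allows a CAST share of up to 23.1% in E6.2 (13 counts), 42.9% in clone E6.43 (7 counts) and 75% in clone E15.10 (4 counts). Over both exons the AI was 0.963 in E6.2 (0.948 to 0.974, 783 B6 and 30 CAST counts), 0.951 in clone E6.43 (0.926 to 0.967, 404 and 21 counts) and 1.00 in clone E15.10 (0.954 to 1.00, 80 and 0 counts). These bounds treat each count as a separate read. The SNPs of each exon lie so close together that they share reads, so the bounds are too narrow. In E15.10 no SNP of exon 8 had over 3 counts and none of exon 10 over 4, so the 80 counts rest on few reads.

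Depth varied between the exons. Total counts per SNP in E6.2 were 8 to 13 in exon 10, 22 to 38 in exon 13, 27 to 49 in exon 8, 39 to 47 in exon 28, 60 to 61 in exon 5, 66 to 107 in exon 9 and 119 to 121 in exon 29. These totals sum both alleles, so they are lower where few CAST counts were listed. Exon 13 had 15 to 26 B6 and 7 to 12 CAST counts at each SNP in E6.2 (AI 0.684, 0.586 to 0.767). Exon 8 had 24 to 48 B6 counts there. Exons 8, 9 and 10 have GC contents of 36.6%, 37.6% and 34.6%, and exon 5 has 56.7%. The part of GC content and of mapping in these depths was not tested.

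Of the 20 coding SNPs outside exons 8 and 10, both alleles were counted at 19 in E6.2, at 19 in E6.43 and at 13 in E15.10. The 7 without a CAST count in E15.10 lie in exons 2, 13, 23 and 28 and had 0 to 5 counts there. The 2 SNPs of exon 5, in the alternatively spliced stretch that distinguishes CD45 isoforms, had 31 B6 and 30 CAST counts and 29 B6 and 31 CAST counts in E6.2. In E6.43 they had 19 and 12, and 23 and 14. In E15.10 they had 4 and 3, and 6 and 3. Exon 29, which encodes part of the cytoplasmic portion, gave 69 B6 and 52 CAST counts and 67 and 52 counts at its SNPs in E6.2. The SNP of exon 24 leaned to CAST in E6.2, with 21 B6 and 34 CAST counts, but had 16 and 11 in clone E6.43. CAST counts were thus 30 or more at each of these SNPs in E6.2.

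Within exon 9 the balance changed over 31 bp. In E6.2 the SNP at position 138112254 had 63 B6 and 44 CAST counts (AI 0.589, 0.494 to 0.677). The neighbouring SNP at 138112223 had 57 B6 and 10 CAST counts (AI 0.851, 0.747 to 0.917), and those at 138112211 and 138112203 had 56 and 10, and 57 and 10. In E6.43 the same pair of positions had 34 and 15 counts, then 30 and 4. In E15.10 both had 5 and 1. The B6 counts were thus alike at the 4 SNPs of exon 9 in E6.2, and the CAST counts fell from 44 to 10 towards the 3 SNPs that lie closest together.

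All 25 SNPs outside exons 8 and 10 together had an AI of 0.606 in E6.2 (0.580 to 0.632, 1344 counts), 0.677 in clone E6.43 (0.643 to 0.709, 777 counts) and 0.75 in clone E15.10 (0.666 to 0.819, 120 counts). These remained above the interval's 0.547, 0.553 and 0.546. SNPs of the crowded exons fell on every codon position, with 11 at the first base, 14 at the second and 10 at the third. The 20 other coding SNPs had 5, 4 and 11.

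**Figure D2:**
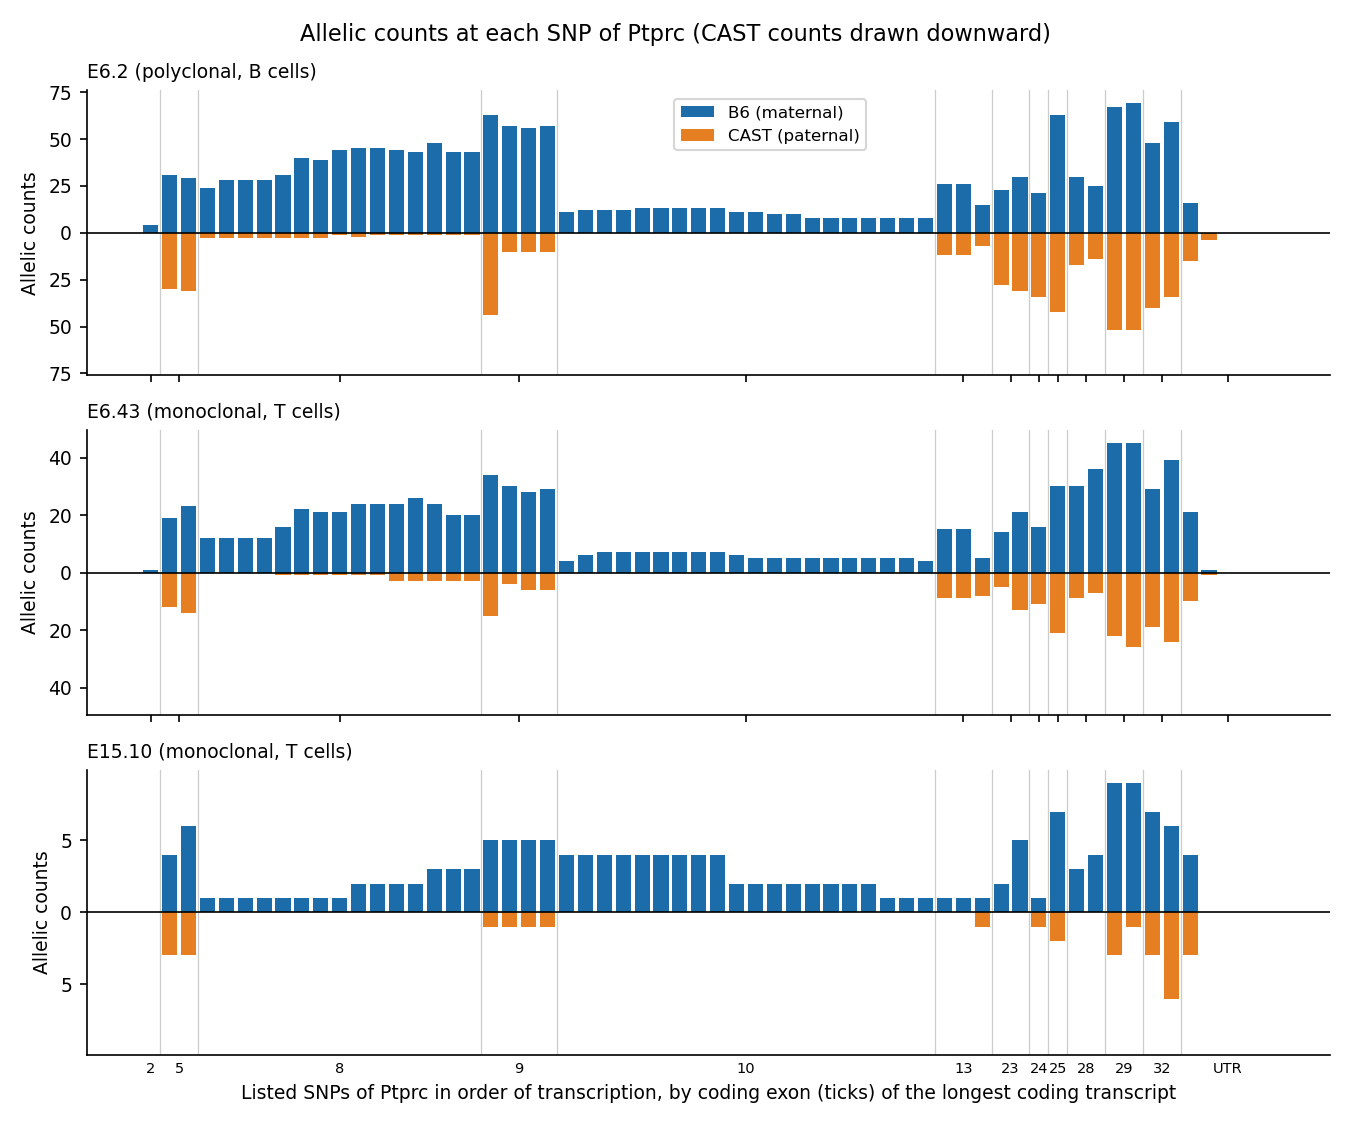
Allelic counts at each listed SNP of Ptprc in the order of transcription, grouped by coding exon of the longest coding transcript, with untranslated positions at the right end. B6 counts are drawn upward in blue and CAST counts downward in orange, in 1 panel per library with its own scale. CAST bars are absent throughout exon 10 and at most 3 counts in exon 8, while exons 5, 13, 23, 24, 25, 29 and 32 show both alleles in every library that covers them with over 5 counts a SNP.

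AI in Ptprc followed how crowded the listed SNPs were. The 11 SNPs with no other listed SNP within 75 bp had 0.562 in E6.2 (0.513 to 0.610), 0.602 in clone E6.43 (0.538 to 0.662) and 0.619 in clone E15.10 (0.468 to 0.75). With 1 to 2 such neighbours AI was 0.561, 0.676 and 0.815, and with 3 to 4 it was 0.799, 0.845 and 0.857. With 5 to 9 it was 0.964, 0.917 and 1.00, and at the 24 SNPs with 10 or more it was 0.981, 0.961 and 1.00. At isolated positions the 95% bounds of Ptprc enclosed the AI of the whole interval, crowded SNPs included, in all 3 libraries. Against isolated SNPs of the interval outside Ptprc, they enclosed the AI in E6.2 (0.527) and E15.10 (0.533). In E6.43 the lower bound of 0.538 was just above the AI of those SNPs, 0.536.

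The same order was present outside Ptprc, with smaller steps. The rest of the interval had 0.527, 0.536 and 0.533 at isolated SNPs. It had 0.551, 0.557 and 0.547 with 1 to 2 neighbours, 0.565, 0.582 and 0.582 with 3 to 4, and 0.675, 0.624 and 0.672 with 5 to 9. Over all autosomes AI rose from 0.522, 0.522 and 0.525 at isolated SNPs to 0.588, 0.588 and 0.584 with 5 to 9 neighbours and to 0.631, 0.631 and 0.639 with 10 or more. Of the 57 SNPs of the interval with 10 or more neighbours, 24 lie in Ptprc, 24 in the processed pseudogene Gm4204 and 9 in Igfn1, which encodes a muscle protein with immunoglobulin and fibronectin domains. The latter 33 SNPs had only 14, 11 and 18 counts in all. These are descriptions over positions that share reads. Neither the listing of these SNPs nor the alignment of CAST reads over them was tested.

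**Figure D3:**
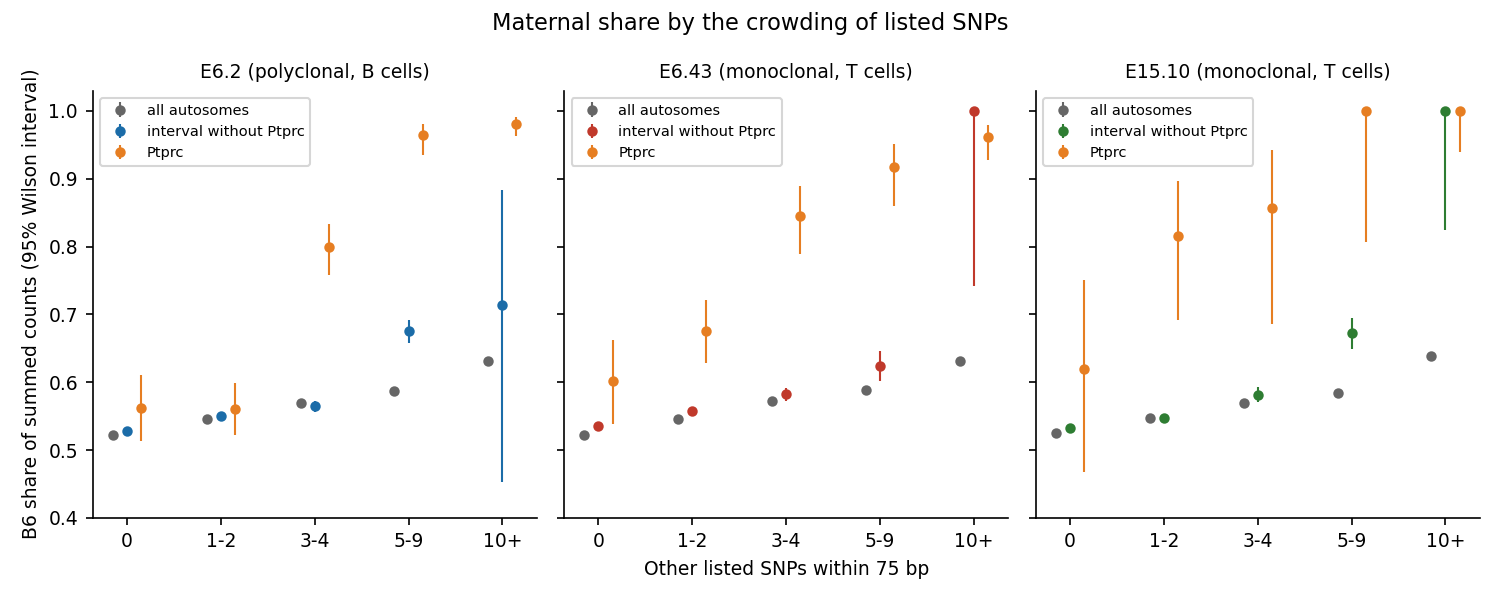
B6 share of summed counts against the number of other listed SNPs within 75 bp, for all autosomes (grey), the interval without Ptprc (library colour) and Ptprc (orange), with 95% Wilson intervals. In each library the autosomal share rises from about 0.52 to about 0.63 to 0.64, and Ptprc starts at 0.562, 0.602 and 0.619 and ends at 0.981, 0.961 and 1.00.

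The genes on either side of Ptprc held both alleles. Below it in position, Kif14, a mitotic kinesin, had 0.547 in E6.2 (5028 counts), 0.570 in clone E6.43 (3662) and 0.571 in clone E15.10 (2760). Ddx59, an RNA helicase, had 0.555, 0.465 and 0.584. Zfp281, a zinc finger transcription factor, had 0.468, 0.475 and 0.494. Nr5a2, a nuclear receptor of liver and pancreas, had 0.394, 0.385 and 0.493. The first of these was above 0.5 in every library, Zfp281 and Nr5a2 were below it in all, and Ddx59 was on either side. For Zfp281, and for Nr5a2 in E15.10, 0.5 was within counting error.

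Above Ptprc in position, Atp6v1g3, a subunit of the vacuolar proton pump, had 0.50, 0.607 and 0.575. Nek7, a kinase of mitosis and of the NLRP3 inflammasome, had 0.511, 0.50 and 0.714, the last on 35 counts. Lhx9, a LIM homeobox gene of gonad development, had 0.530, 0.448 and 0.525. 2310009B15Rik had 0.591, 0.394 and 0.533 on 44, 33 and 15 counts. Dennd1b, an exchange factor for Rab35, had 0.602, 0.516 and 0.541. None of these 9 neighbours was in the loss of heterozygosity range in any library.

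ENSMUSG00000051480 was the measured gene next to Ptprc and the most variable between the libraries among genes with at least 100 counts in each. It is listed with 18 SNPs between positions 137928360 and 137929786 of chromosome 1. Its AI was 0.573 in E6.2 (0.542 to 0.603, 988 counts), 0.778 in clone E6.43 (0.739 to 0.812, 486 counts) and 0.419 in clone E15.10 (0.337 to 0.505, 129 counts). E6.43 was higher than E6.2 by 0.205 (adjusted p = 3.1e-12) and higher than E15.10 by 0.359 (adjusted p = 2.1e-12), and E15.10 was lower than E6.2 by 0.154 (adjusted p = 0.0109, Fisher's exact tests). The libraries are thus in the order E6.43, E6.2, E15.10 with intervals that do not overlap.

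Of the 11 SNPs of ENSMUSG00000051480 with at least 20 counts in E6.43, 7 were over 0.75 there. Of its single SNPs only that at 137929619 was called between E6.43 and E6.2. No SNP of the gene reached 20 counts in E15.10. Neighbouring SNPs share reads, and those at least 300 bp apart held 189 counts in E6.2, 90 in clone E6.43 and 32 in clone E15.10. At position 137929619 the AI of ENSMUSG00000051480 was 0.570 in E6.2, 0.882 in clone E6.43 and 0.429 in clone E15.10. At 137929544 it was 0.510, 0.774 and 0.462, on 96, 53 and 13 counts. At 137929323 it was 0.746, 0.710 and 0.833, on 67, 31 and 6 counts, without that order. When only SNPs at least 300 bp apart were summed the values were 0.487, 0.756 and 0.25, and this gene was called in the 2 pairs with E6.43. When counts were reduced for the overdispersion between genes it was called only between E6.43 and E15.10.

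The ends of the interval and its most deeply counted genes were as follows. Actr3, the first measured gene, had 0.330 in E6.2 (0.282 to 0.382), 0.30 in clone E6.43 (0.242 to 0.367) and 0.427 in clone E15.10 (0.341 to 0.518). It thus leaned to CAST in all 3 libraries, within counting error of 0.5 in E15.10. Actr3 was called in no pair (adjusted p = 0.741 for E6.43 against E6.2, 0.213 for E15.10 against E6.2 and 0.111 for E6.43 against E15.10, Fisher's exact tests). Pla2g4a, the last, which encodes the cytosolic phospholipase that releases arachidonic acid, had 0.539, 0.477 and 0.587. Map3k19, a kinase, had the most counts (7128 in E6.2) and 0.618, 0.607 and 0.605. Nckap5 had 0.532, 0.543 and 0.564. Kif21b, a neuronal and lymphoid kinesin, had 0.555, 0.596 and 0.523, and Aspm, a spindle pole protein, had 0.532, 0.553 and 0.593. All 4 of these were above 0.5 in every library.

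The SD of gene values was lower in the interval than over the autosomes, a description with no test. At SNPs with at least 20 counts the rest of chromosome 1 was nearly as narrow in the donor 6 libraries. The SD was 0.105 in the interval, 0.107 on the rest of chromosome 1 and 0.126 over autosomes in E6.2. In E6.43 it was 0.111, 0.114 and 0.132 in the same order. In E15.10 the interval was below the rest of chromosome 1 (0.121) and all autosomes (0.123). The study's methods report a large deletion in all E6 samples, and its part in these SDs was not tested. With at least 10 counts, 160 genes in E6.2 had a median AI of 0.539 and an SD of 0.0631, against 0.538 and 0.114 for autosomal genes. In E6.43 the values were 0.546 and 0.0725 for 160 genes, against 0.538 and 0.119, and in E15.10 0.55 and 0.0824 for 159 genes, against 0.537 and 0.114. In the loss of heterozygosity range were 1 gene of 160 in E6.2 (background 5.32%), 2 of 160 in clone E6.43 (5.56%) and 5 of 159 in clone E15.10 (5.24%). The gene in E6.2 was Gm15443, a pseudogene with 10 counts. In E6.43 they were Ptprc and ENSMUSG00000051480. In E15.10 they were Ptprc, Gm4204, Gm6397, Rgs13 and ENSMUSG00000053988, and only Gm6397 was on the CAST side, at 0.222 of 45 counts. Over all autosomal genes 2.48% of E6.43 and 1.63% of E15.10 were under 0.25, and 3.08% and 3.60% were over 0.75.

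**Figure D4:**
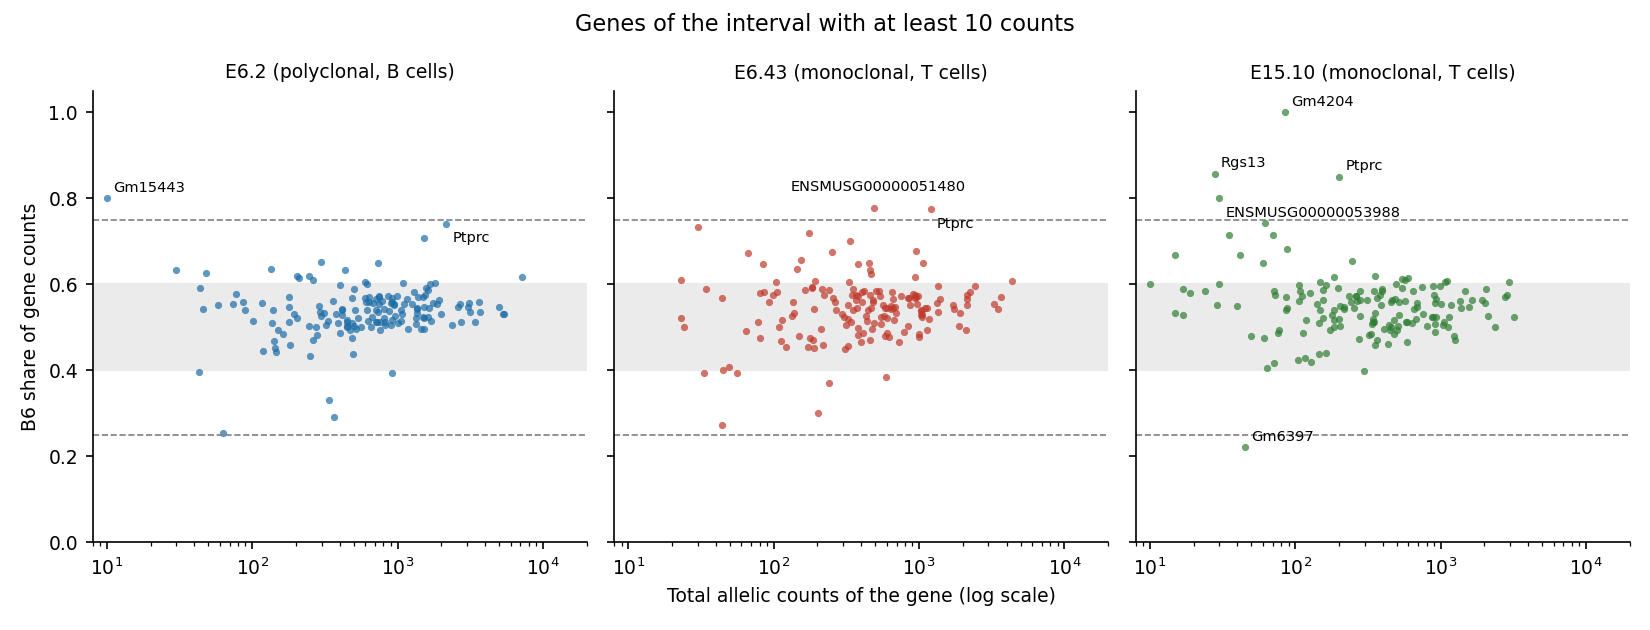
B6 share of each gene of the interval with at least 10 counts against its total allelic counts on a log scale, in 1 panel per library, with genes under 0.25 or over 0.75 named and Ptprc named in every panel. Grey shading marks 0.4 to 0.6 and dashed lines mark 0.25 and 0.75. Most genes lie in the shaded band (136 of 160 in E6.2, 132 of 160 in clone E6.43 and 136 of 159 in clone E15.10), and Ptprc is the gene with the most counts near or above 0.75.

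Between pairs of libraries, gene calls in the interval were about as frequent as over all autosomes. The pairs share libraries and so are not independent. Of 159 genes, 24 were called between E6.43 and E6.2 (15.1%, background 13.8%), 14 higher and 10 lower in clone E6.43. Between E15.10 and E6.2, 22 of 159 were called (13.8%, background 18.8%), 14 higher and 8 lower in E15.10. Between E6.43 and E15.10, 27 of 159 were called (17.0%, background 18.7%), 15 higher and 12 lower in E6.43. The median absolute difference between libraries was 0.0411, 0.0375 and 0.0457, against 0.0401, 0.0485 and 0.0515 over autosomal genes. Fisher's exact test treats each count as independent, and with counts reduced for overdispersion 0, 1 and 2 genes were called (2, 6 and 5 at an unadjusted p under 0.05). That overdispersion was fitted to the spread of AI between genes within a library, which includes any bias of a gene that recurs in every library. The reduction can therefore be too strong, and a call lost with it does not show that the libraries were alike. The genes still called were Gm4204, in both pairs with E15.10, and ENSMUSG00000051480, between E6.43 and E15.10.

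Few single SNPs were called. Of 1420 SNPs with at least 20 counts in clone E6.43 and E6.2, 4 were called (background 0.325%), in Gm15790, Plekha6, Cacna1s and ENSMUSG00000051480. Of 1124 in clone E15.10 and E6.2, 15 were called (background 2.53%), and of 1089 in clone E6.43 and E15.10, 15 (background 2.53%). A difference of at least 0.3 was seen at 20 SNPs of the first pair (background 1.25%), 15 of the second (2.68%) and 28 of the third (3.23%). The calls were spread over 4, 13 and 13 genes.

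The genes with the widest differences were mostly low in counts. Gm4204 had 0.577 in E6.2, 0.273 in clone E6.43 and 1.00 in clone E15.10, on 78, 44 and 85 counts over 51 crowded SNPs. With SNPs at least 300 bp apart only 6, 3 and 7 counts were left, so its adjusted p values of 2.2e-11 between E15.10 and E6.2 and 1.2e-18 between E6.43 and E15.10 rest on few reads counted at many SNPs. A CAST count of 0 of 85 would allow a CAST share of up to 3.53% if each count were a separate read. With few reads counted at many SNPs, the share allowed is larger than that. Rgs13, a regulator of G protein signalling in germinal centre B cells, had 0.451, 0.559 and 0.857, the last on 28 counts. ENSMUSG00000053988 had 0.511, 0.672 and 0.80 on 30 counts, and the pseudogene Rpl28-ps1 had 0.434, 0.469 and 0.714 on 70 counts. B3galt2, a galactosyltransferase, had 0.521, 0.574 and 0.742 on 62 counts. Each of these had its highest value in E15.10, where their counts were lowest except for Gm4204.

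Gm15583 and Rgs1 went the other way. Gm15583, a processed pseudogene, had 0.632, 0.676 and 0.423, and E15.10 was lower than E6.2 by 0.209 (adjusted p = 0.00186, Fisher's exact test). Rgs1, a regulator of chemokine receptor signalling in lymphocytes, had 0.555, 0.646 and 0.439. E6.43 was above E6.2 by 0.0918 (adjusted p = 0.0293), and E15.10 was below it by 0.116 (adjusted p = 0.0498, Fisher's exact tests). These 3 calls were lost with counts reduced for overdispersion (adjusted p = 1 for each) and with SNPs at least 300 bp apart (adjusted p = 0.0566 for Gm15583, and 0.857 and 0.582 for Rgs1, by the same exact test). E6.43 was above E15.10 by 0.253 for Gm15583 (adjusted p = 0.000296, Fisher's exact test). For Rgs1 it was above by 0.207 (adjusted p = 0.000169, Fisher's exact test). Both of these calls were lost with counts reduced for overdispersion. With SNPs at least 300 bp apart Gm15583 was still called in this pair (adjusted p = 0.0247, Fisher's exact test). Rgs1 was not (adjusted p = 0.416, Fisher's exact test).

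Among 22 genes of leukocyte function that the interval was searched for, 20 had counts. Their median AI was 0.559, 0.556 and 0.561, against 0.539, 0.546 and 0.55 over the interval's genes, and 0, 1 and 2 of them were in the loss of heterozygosity range (5.32%, 5.56% and 5.24% of autosomal genes). Ptprc was the highest in E6.2 and in clone E6.43, and Rgs13 in clone E15.10. The lowest were Btg2, an antiproliferative gene, at 0.445 in E6.2, Pla2g4a at 0.477 in clone E6.43 and Rgs1 at 0.439 in clone E15.10. Of the 20, 5 were called between E6.43 and E6.2 (13.8% of autosomal genes). Chil1, a chitinase-like protein, and Rgs1 were higher in E6.43, and Pigr, the receptor that transports IgA, Fcmr, the IgM Fc receptor, and Ptpn7, a phosphatase of lymphocytes, were lower. Between E15.10 and E6.2, 3 were called (18.8% of autosomal genes), with Ptprc and Rgs13 higher and Rgs1 lower in E15.10. Between E6.43 and E15.10, 6 were called (18.7% of autosomal genes), 3 in each direction. None of these calls was kept with counts reduced for overdispersion.

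Of 10 complement and complement regulator genes, 9 had counts. Their medians were 0.559, 0.573 and 0.549 and none was in the loss of heterozygosity range. Cfhr2, a factor H-related gene, was highest in E6.2 at 0.708 and in clone E6.43 at 0.677. The lowest were Cd55, which speeds the decay of complement convertases, at 0.501 in E6.2, C4bp, a cofactor for C4b degradation, at 0.453 in clone E6.43, and Gm4788 at 0.458 in clone E15.10. Gm4788 was lower in clone E15.10 than in E6.2 (difference -0.101, adjusted p = 0.00312, Fisher's exact test) and than in clone E6.43, and no other gene of the list was called. The list's 0, 1 and 1 calls of 9 stand beside 13.8%, 18.8% and 18.7% of autosomal genes. The calls of Gm4788 were lost with counts reduced for overdispersion (adjusted p = 1) and with SNPs at least 300 bp apart (adjusted p = 0.236 and 0.155, Fisher's exact tests). Near-identical copies exist in the factor H family, and whether reads were split between its members was not tested.

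Of 11 genes of cell division and chromatin, 10 had counts, with medians of 0.55, 0.560 and 0.558 and none in the loss of heterozygosity range. Rbbp5, a subunit of histone H3 lysine methyltransferases, was highest in E6.2 at 0.573, Nucks1 in clone E6.43 at 0.733 on 30 counts, and Nek7 in clone E15.10. Cdc73, a subunit of the PAF1 complex, was lowest in E6.2 at 0.395 and in clone E6.43 at 0.408, on 43 and 49 counts, and Ube2t, a ubiquitin-conjugating enzyme of the Fanconi anaemia pathway, was lowest in clone E15.10 at 0.513. Kif21b was called higher in clone E6.43 than in both other libraries, and Aspm was called higher in clone E15.10 than in E6.2. That was 1 of 10 genes in each pair, against 13.8%, 18.8% and 18.7% of autosomal genes. None was called with counts reduced for overdispersion, and with SNPs at least 300 bp apart only Kif21b between E6.43 and E15.10 was (adjusted p = 0.0140, Fisher's exact test).

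The depth of E15.10 fell within the interval, with both alleles still present. Before 137 Mb, E15.10 had 1.17 times the share of autosomal counts of E6.2, and from 137 Mb on it had 0.267 times. For E6.43 these ratios were 1.02 and 0.919. The position of this division was chosen after the values were seen. AI before it was 0.54 in E6.2, 0.546 in clone E6.43 and 0.546 in clone E15.10. AI after it was 0.569 (0.564 to 0.574), 0.582 (0.575 to 0.588) and 0.557 (0.543 to 0.570), in the stretch that holds Ptprc. Of the 1029 SNPs after it, 363 in E6.2, 328 in clone E6.43 and 76 in clone E15.10 had at least 20 counts.

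GC content fell at the same place. The 12 windows of 1 Mb before 137 Mb with at least 500 counts in E6.2 had a GC content of 39.4% to 48.5%, and the 9 such windows after it had 36.2% to 40.2%. The ratio of E15.10 to E6.2 in those 9 windows was 0.208 to 0.481, and the medians of other autosomal windows within 1 percentage point of the same GC content were 0.260 to 0.541. It was under the 5th percentile of such windows in 3 of the 9 and in 2 of the 12, and above the 95th in none. Over all autosomal SNPs the ratio rose from 0.479 where the GC content of the surrounding 301 bp was under 40% to 1.33 where it was 50% or more. At SNPs from 137 Mb on the ratio was lower than that in each of 4 classes of GC content. It was 0.215 under 40% (autosomes 0.479), 0.246 from 40% to 45% (0.603), 0.301 from 45% to 50% (0.791) and 0.447 at 50% or more (1.33). In the same classes before 137 Mb it was 0.570, 0.760, 0.935 and 1.38. Summed over these SNPs, the depth of E15.10 after 137 Mb was thus below that of autosomal SNPs of like GC content. Single windows differed in this. Those from 141, 144 and 146 Mb were above the median of windows of like GC content (0.284 against 0.268, 0.481 against 0.345 and 0.273 against 0.260), and the others were below theirs. The window from 139 Mb held 19797 of the 35532 counts of E6.2 after 137 Mb. The cause was not tested.

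**Figure D5:**
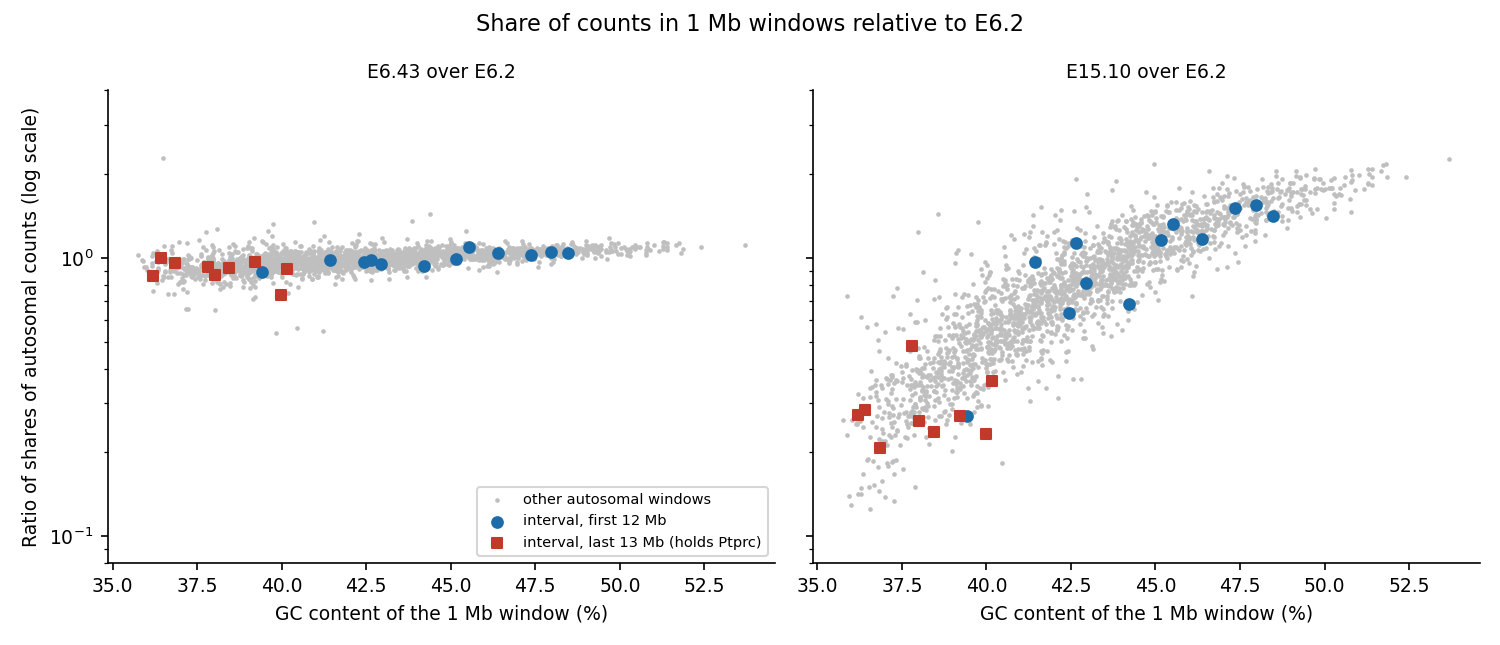
Ratio of the share of autosomal counts in 1 Mb windows to that in E6.2 on a log scale, against the GC content of the window in percent, for E6.43 (left) and E15.10 (right), with other autosomal windows in grey, the first 12 Mb of the interval in blue and its last 13 Mb in red. E15.10 climbs with GC content across the genome, and the windows of the last 13 Mb lie at 0.208 to 0.481 among windows of low GC content, while E6.43 stays near 1.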

How the data were processed

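Allelic counts of whole exome DNA came from 3 libraries with 1 per group. Per the submitters' processing notes and the study's methods, reads (150 bp paired-end, fragments of 180 to 280 bp, SureSelect capture) were trimmed with Trim Galore and cutadapt 1.14, aligned to GRCm38 with STAR 2.5.4a, and handled with SAMtools and GATK. The authors deposited raw maternal and paternal counts per SNP and gene, with positions and gene identifiers as other columns, and a table of the genes with at least 90 counts that holds the AI as a fraction beside counts. Its p-values and calls were not used. All totals were 19471576 (E6.2), 13036005 (E6.43) and 10863972 (E15.10) counts.

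SNPs were selected by position (0 positions were listed more than once) and 4109 of the 4121 SNPs in annotated genes lay inside their gene's bounds in GENCODE M21. AI was computed from summed counts with 95% Wilson intervals, for SNPs with at least 20 and genes with at least 10 counts. Two-sided Fisher's exact tests (numba 0.67.0, scipy 1.17.1, Python 3.11.15), tested on simulated data first, ran over all autosomal genes or SNPs with Benjamini-Hochberg adjustment, called under 0.05. Without replicates, p-values measure counting error only. Overdispersion was estimated per library from the spread of AI between autosomal genes (0.0135, 0.0152 and 0.0156), not from the spread between libraries. Sequences and GC content came from the RefSeq GRCm38.p6 genome.

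Named genes were Ptprc, 5 measured genes on each side of it, the first and last measured gene, the 5 with the most counts, those with at least 50 counts in every library and an AI in the loss of heterozygosity range, up to 8 called genes with a difference of at least 0.15, and the extremes of 3 gene lists. Genes and SNPs named outside this rule, and the comparisons by exon, SNP crowding and GC content, were chosen after their values were seen. The interval and the lists were chosen with earlier results of these data known. Alternatives were SNPs at least 300 bp apart, other minimum counts and ranges, medians in place of sums, other windows, overdispersion, and 3 added after seeing the data.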

Additional observations from a re-analysis of the deposited data

How the results depend on the processing

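All values are given in the order E6.2, E6.43, E15.10 unless named, and 22 of 74 values from alternative settings stayed within the counting error or within 1.5 times the count, while 52 moved. The interval's AI of 0.547, 0.553 and 0.546 became 0.534, 0.54 and 0.536 with SNPs at least 300 bp apart, 0.539, 0.546 and 0.55 as the median of genes, and 0.528, 0.536 and 0.533 with SNPs that have no listed neighbour within 75 bp, an alternative added after seeing the data. Within 5 Mb of Ptprc it was 0.55 for E6.2 and 0.559 for E6.43. SNPs in the loss of heterozygosity range (57, 74 and 26) numbered 18, 26 and 10 with SNPs at least 300 bp apart, 24, 23 and 8 with at least 50 counts, and 20, 9 and 1 with limits of 0.1 and 0.9, and with at least 10 counts 92 in E6.2 and 92 in E15.10. Genes in that range (1, 2 and 5) numbered 0, 0 and 1 with limits of 0.1 and 0.9. For E15.10 they numbered 2 with SNPs at least 300 bp apart, 2 with at least 50 counts and 1 in the deposited table of at least 90 counts, and for E6.2 0 with either of those minimums. The AI of Ptprc (0.741, 0.774 and 0.850) became 0.604, 0.663 and 0.781 with SNPs at least 300 bp apart and 0.848 in E6.2 as the median of SNPs. Added after seeing the data, it was 0.606, 0.677 and 0.75 without exons 8 and 10, and 0.562, 0.602 and 0.619 with isolated SNPs. SNPs with at least 20 counts in each library gave no value for Ptprc, since E15.10 had none. Windows outside 0.4 to 0.6 (1, 2 and 1) numbered 0, 0 and 0 with SNPs at least 300 bp apart, 1 in E6.43 with windows of 2 Mb, and 3 in E6.2 and 0 in E15.10 with the median of SNPs. Genes called between libraries (24 for E6.43 against E6.2, 22 for E15.10 against E6.2, 27 for E6.43 against E15.10) numbered 0, 1 and 2 with counts reduced for overdispersion and 2, 0 and 5 with SNPs at least 300 bp apart (20, 17 and 23 at an unadjusted p under 0.05, Fisher's exact test). Of 76 differences recomputed for named genes, 30 kept their direction and side of the threshold, 44 lost the call, and 2 turned. Both were of Nr5a2 with SNPs at least 300 bp apart, for E15.10 against E6.2 (-0.00788, from 0.0995) and for E6.43 against E15.10 (0.0125, from -0.108). The cause of these changes was not tested. No paired analysis was possible because each group has 1 library and no replicate numbers to pair. Depth limits E15.10 most, with 76 SNPs at 20 or more counts after 137 Mb and none in Ptprc.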
